A study of Homo sapiens with 4 samples.

Results

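The transcripts examined here are 35 genes of the ATF4 and endoplasmic reticulum (ER) stress response, of the 20372 genes in the deposited RNA sequencing table. They are the rows whose symbol stands on a list of pathway genes. No measured value enters that rule, but the list was chosen with earlier results of these data known. Messenger RNA was measured in TPC1, a human cell line from a papillary cancer of the thyroid in which a CCDC6-RET fusion drives signalling. One set of cells was treated for 6 h with BLU6864, a selective inhibitor of the RET kinase, and the other with the solvent DMSO, and both grew in DMEM with serum. Each group had 2 libraries. The labels give the inhibitor at 100 micromolar and the study's methods at 100 nM, so the dose is uncertain. The labels give no time for the DMSO cells, whose columns carry 24 h in their names, so inhibitor and time in culture cannot be told apart. Both BLU6864 libraries, and neither DMSO library, are marked as a re-analysis in their titles, and whatever that covers cannot be told apart from the inhibitor either. The libraries are not stated to come from separate cultures, so p-values measure the spread between these libraries, which may be technical.

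A shortage of amino acids, unfolded proteins in the ER, haem deficiency or double-stranded RNA each activate a kinase that phosphorylates the initiation factor eIF2. General translation then slows, while the ATF4 messenger is translated more, through upstream open reading frames. ATF4 is a transcription factor that switches on amino acid synthesis and transport, tRNA charging and, when stress lasts, the proapoptotic factor CHOP. In the ER, unfolded proteins engage 3 kinds of sensor, namely PERK (EIF2AK3), IRE1 (ERN1 and ERN2) and ATF6. IRE1 removes an intron from the XBP1 messenger, ATF6 is cut by Golgi proteases, and both products raise chaperones and the machinery of ER-associated degradation. Counts per gene see neither ATF4 translation, nor XBP1 splicing, nor ATF6 cleavage, so the values below are transcript levels only.

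The libraries held 23917056 and 26829072 counts with BLU6864 and 28305571 and 23750509 with DMSO. The 35 genes took 0.820% and 0.759% of them with BLU6864 and 0.705% and 0.656% with DMSO. Abundant genes weigh most in this share, so it does not describe the members as a set. DDIT4 alone held 37526 and 39111 of the 196061 and 203595 member reads with BLU6864. With DMSO it held 24110 and 19783 of 199586 and 155810. CALR held more in every library, 43129 and 43912 with BLU6864 and 41968 and 32963 with DMSO. HSPA5 held 26694 and 25627 with BLU6864 and 27068 and 19756 with DMSO. Among thyroid follicular markers, PAX8, FOXE1 and TG were counted at 186 reads or more in every library, while NKX2-1 and TSHR had 0 reads and SLC5A5 at most 7. PAX8, FOXE1 and TG were lower with BLU6864, with log2 ratios to DMSO of -0.36, -0.48 and -0.85. Of the epithelial markers, KRT8, KRT18 and KRT19 had 100 reads or more in every library, EPCAM at most 11 and CDH1 at most 8. The log2 ratios of KRT8, KRT18 and KRT19 were -0.16, -1.02 and -0.21. PTPRC, CD3E, CDH5 and CALCA, markers of leukocytes, endothelium and C cells, had at most 5 reads in any library.

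The promoters of several members hold known stress response elements, and their letters are shown first because the genes that carry the same element differed in how they changed. Promoter windows of 300 bases, from 250 before to 50 after each start, were taken from RefSeq (GRCh38.p14), which matched 32 of the 35 members. ERN2, PSPH and SHMT2 had no window and were not searched. Both strands were searched for the ER stress element ERSE (CCAAT and CCACG with 9 bases between them), its variant ERSE-II (ATTGG and CCACG with 1 base between them), the XBP1-binding UPRE core (TGACGTGG) and the C/EBP-ATF response element core, CARE (TGATGNAA), which ATF4 dimers bind. ERSE was in 5 of the 32 matched members, ERSE-II in 3, the UPRE core in 1 and the CARE core in 4. Of all 27305 genes in the RefSeq table, 0.0916%, 0.0696%, 0.927% and 4.46% held them in at least 1 window, in that order, or 0.0769%, 0.0541%, 0.729% and 3.62% of all 35116 windows. The UPRE core, in HYOU1, overlapped an ERSE-II match. Below are 4 of these promoters, 5′ to 3′ on the gene's strand, with the matched element in capitals: HERPUD1 and XBP1, which rose, HSPA5, which did not pass the test, and CHAC1, which fell. They lie at chr16:56931892-56932191 (plus strand), chr22:28800520-28800819 (minus), chr9:125241294-125241593 (minus) and chr15:40953221-40953520 (plus) in GRCh38.p14.
HERPUD1: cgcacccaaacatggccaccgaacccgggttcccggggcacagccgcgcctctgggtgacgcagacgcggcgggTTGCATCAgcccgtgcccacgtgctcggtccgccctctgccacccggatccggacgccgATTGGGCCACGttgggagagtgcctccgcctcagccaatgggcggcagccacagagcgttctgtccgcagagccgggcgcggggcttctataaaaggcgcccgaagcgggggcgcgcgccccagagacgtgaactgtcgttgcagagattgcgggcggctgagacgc
XBP1: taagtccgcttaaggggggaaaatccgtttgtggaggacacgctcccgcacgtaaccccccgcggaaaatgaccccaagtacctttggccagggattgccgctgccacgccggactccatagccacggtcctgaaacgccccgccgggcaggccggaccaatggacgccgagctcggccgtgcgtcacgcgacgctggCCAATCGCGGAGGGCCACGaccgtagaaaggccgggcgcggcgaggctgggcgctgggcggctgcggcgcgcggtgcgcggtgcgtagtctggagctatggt
HSPA5: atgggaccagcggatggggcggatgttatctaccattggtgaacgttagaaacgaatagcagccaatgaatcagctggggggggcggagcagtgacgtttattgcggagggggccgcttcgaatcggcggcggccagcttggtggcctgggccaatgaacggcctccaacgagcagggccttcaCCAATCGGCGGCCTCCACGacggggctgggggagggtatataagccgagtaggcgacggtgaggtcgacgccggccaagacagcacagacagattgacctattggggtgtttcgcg
CHAC1: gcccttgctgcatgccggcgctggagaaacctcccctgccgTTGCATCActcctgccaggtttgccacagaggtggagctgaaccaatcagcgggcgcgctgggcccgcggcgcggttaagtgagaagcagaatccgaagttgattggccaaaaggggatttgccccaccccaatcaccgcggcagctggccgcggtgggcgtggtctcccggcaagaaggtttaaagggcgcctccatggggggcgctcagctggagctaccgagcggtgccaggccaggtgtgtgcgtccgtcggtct
The capitals mark a CARE core on the opposite strand and then an ERSE-II in HERPUD1, an ERSE in XBP1 and in HSPA5, and a CARE core on the opposite strand in CHAC1. A match is a string of letters and not a shown binding site.

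All 35 genes had enough reads to be tested, and 16 of them were called between the groups, 9 higher and 7 lower with BLU6864. A call is an adjusted p under 0.05 in edgeR's quasi-likelihood test, adjusted over all 12696 genes tested. The share of all tested genes that was called was 42.2%, with 20.3% higher and 22% lower, against 45.7% of the members, so the members were called about as often as any gene. Calls beyond 1 on the log2 scale were made for ERN2, DDIT3, TRIB3 and EDEM1, 4 of 35, where all genes gave 8.75%. The median log2 fold change was 0.043 over the members and 0.014 over all genes tested. Levels below are the authors' normalized read counts, replicate 1 before replicate 2, and each change is a log2 ratio of BLU6864 to DMSO with its SE. Of the 16 calls, 9 were made in all 11 alternative settings, namely ERN2, DDIT3, DDIT4, HERPUD1 and XBP1 among the higher genes and TRIB3, EDEM1, VLDLR and EIF2AK3 among the lower.

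**Figure D1:**
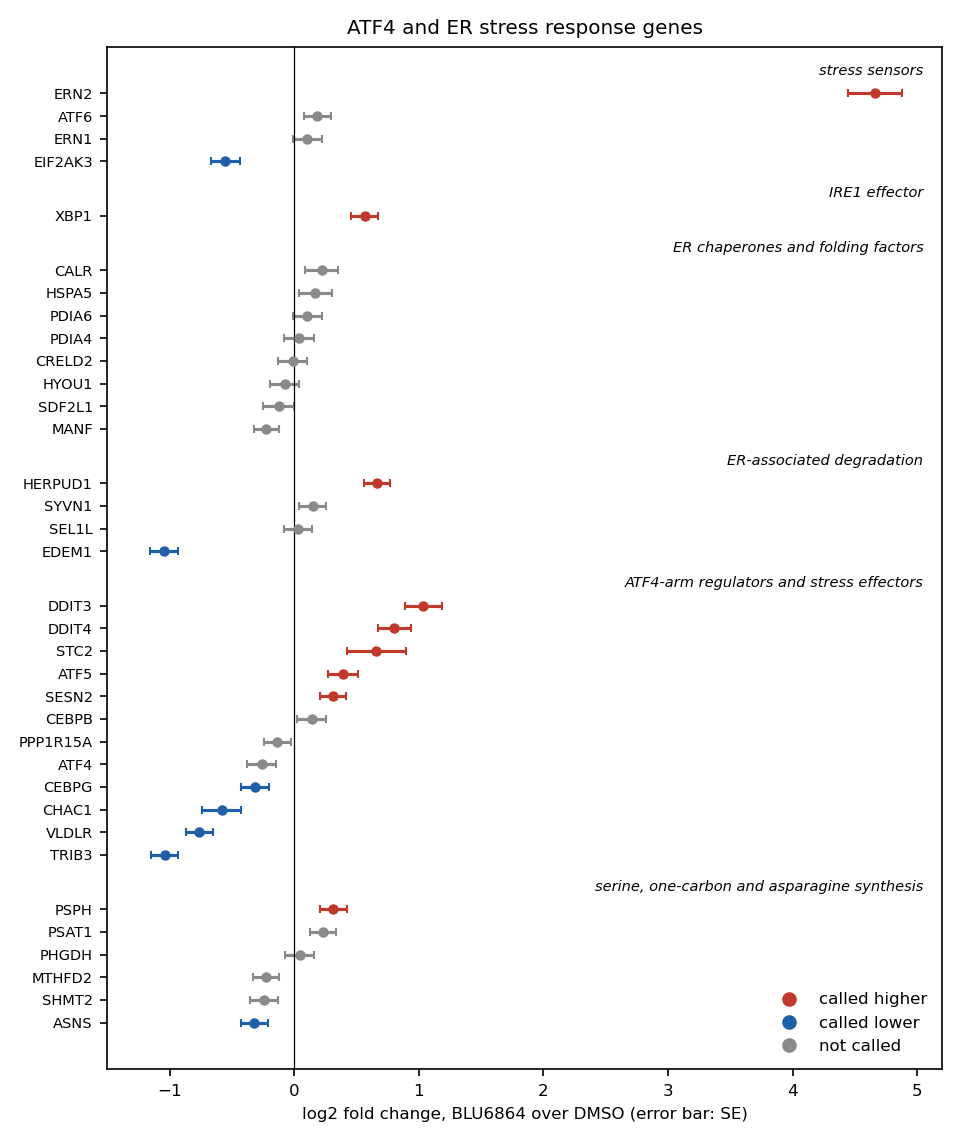
Log2 fold change of BLU6864 over DMSO (horizontal axis) for each of the 35 genes, grouped by role, with error bars of 1 SE and n = 2 libraries per group. ERN2 stands at 4.66, while the other 34 genes lie between -1.05 (EDEM1) and 1.04 (DDIT3), and the 8 chaperones sit around 0.

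Among the sensors, ERN2 rose with BLU6864, EIF2AK3 fell, and ERN1 and ATF6 did not pass the test. ERN2 encodes IRE1 beta, the form of IRE1 known from mucus-producing epithelia of gut and airway, and ERN1 encodes IRE1 alpha, the form found in most cells. ERN2 (ENSG00000134398, hg19 chr16:23701647-23724821) had 460.2 and 424 normalized counts with BLU6864, against 22.9 and 10.9 with DMSO. The DMSO values rest on 25 and 10 reads, those with BLU6864 on 438 and 453, and the groups were far apart. The rise was 25.3-fold (log2 fold change 4.66 ± 0.21, edgeR adjusted p = 1.7e-15), with a log2 fold change of 4.26 to 5.32 over the alternatives. ERN2 overlaps 42 bases of PLK1, a mitotic kinase gene with 2456 to 4244 reads per library, which was higher by 0.42 ± 0.11 with BLU6864 (edgeR adjusted p = 0.00375). Whether PLK1 reads entered the ERN2 count was not tested.

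EIF2AK3 encodes PERK, the ER kinase of eIF2. It had 542 and 536 normalized counts with BLU6864 and 842 and 742 with DMSO, so both treated libraries were below both controls (log2 fold change -0.55 ± 0.12, edgeR adjusted p = 0.000401). ERN1 had 597 and 625 with BLU6864 and 579 and 559 with DMSO, a difference of 0.11 ± 0.12 on the log2 scale (edgeR adjusted p = 0.486). ATF6, an ER-anchored transcription factor, had 4368 and 4034 with BLU6864 and 3778 and 3636 with DMSO (log2 fold change 0.18 ± 0.11, edgeR adjusted p = 0.172). The libraries of these genes did not overlap between groups, as in 27 of the 35 members and 70.8% of all tested genes.

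Scaled to transcript length, the order of the sensors also differed between the groups. The length used is that of the Ensembl canonical transcript in GENCODE v44, an annotation of GRCh38, while the counts rest on hg19. ERN2 had 138 and 127 normalized reads per kilobase with BLU6864, against 6.86 and 3.28 with DMSO. ERN1 had 75.6 and 79.1 per kilobase with BLU6864 and 73.4 and 70.8 with DMSO. Per kilobase, ERN2 thus stood above ERN1 in both BLU6864 libraries and below it in both DMSO libraries. Before scaling, ERN1 was above ERN2 in every library, at 597 and 625 against 460.2 and 424 normalized counts with BLU6864. The reversed order with BLU6864 rests on the lengths used, 7895 bases for ERN1 and 3337 for ERN2. Which transcripts of these genes the cells express was not tested. EIF2AK3 had 119.5 and 118 per kilobase with BLU6864 and 186 and 164 with DMSO, and ATF6, the highest of the 4 in every library, had 585 and 540.0 with BLU6864 and 506 and 487 with DMSO. On this per-kilobase scale, ERN2 and EIF2AK3 lay close to each other with BLU6864, and with DMSO EIF2AK3 was well above both IRE1 genes.

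**Figure D2:**
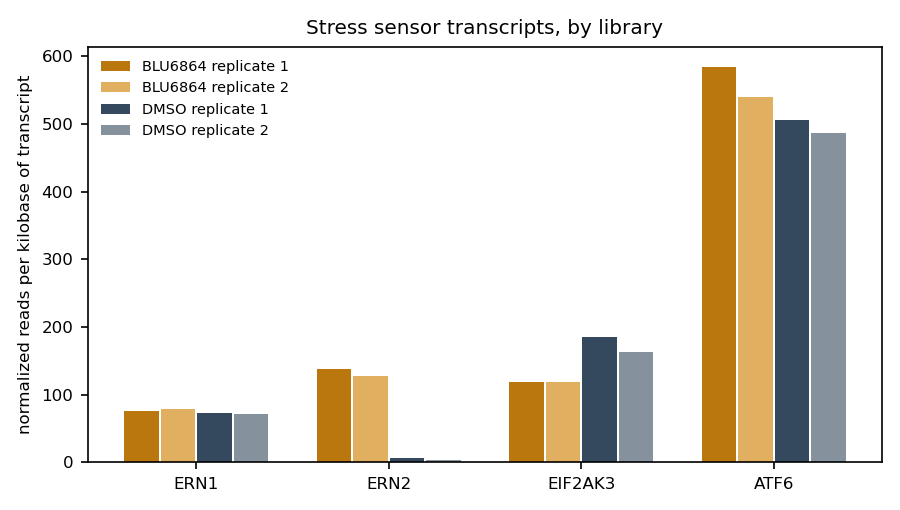
Normalized reads per kilobase of canonical transcript (vertical axis, linear from 0) for the 4 sensor genes, with 1 bar per library. The ERN2 bars are above those of ERN1 in the BLU6864 libraries, at 138 and 127, and close to 0 in the DMSO libraries, at 6.86 and 3.28. Before scaling to length, ERN1 was above ERN2 in every library.

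XBP1, whose messenger IRE1 splices and whose product drives chaperone and degradation genes, rose with BLU6864. It had 4678 and 4194 normalized counts with BLU6864, against 3013 and 3001 with DMSO (log2 fold change 0.56 ± 0.11, edgeR adjusted p = 0.00013). The DMSO libraries lay close to each other and both were well below the treated ones. Over the alternatives the log2 fold change was 0.49 to 0.64, with adjusted p 1.5e-07 to 0.0307. The count covers spliced and unspliced XBP1 messenger together.

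None of the 8 ER chaperones and folding factors was called with edgeR, against 42.2% of all genes. Of these, 1 (MANF) had an unadjusted p under 0.05, and DESeq2 called 0. Their median log2 fold change was 0.013 (-0.083 without DMSO replicate 2 and 0.11 without DMSO replicate 1), with members from -0.22 (MANF) to 0.22 (CALR). HSPA5 encodes BiP, the chief ER chaperone, which holds the sensors inactive when it is free. It had 28047 and 24003 normalized counts with BLU6864 and 24775 and 21618 with DMSO, and the groups overlapped (log2 fold change 0.17 ± 0.13, edgeR adjusted p = 0.322). CALR, the lectin chaperone calreticulin, had 45315 and 41129 with BLU6864 and 38413 and 36069 with DMSO (log2 fold change 0.22 ± 0.13, edgeR adjusted p = 0.198). Neither gene passed in any of the 11 alternatives.

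The disulphide isomerase genes PDIA4 (0.04 ± 0.12) and PDIA6 (0.11 ± 0.12) and CRELD2 (-0.014 ± 0.12), a secreted ER stress protein, were also near 0 on the log2 fold change scale. SDF2L1 (-0.12 ± 0.12), a partner of BiP, and HYOU1 (-0.078 ± 0.12), a nucleotide exchange factor for BiP, were slightly below 0. MANF, a secreted folding factor with protective activity in neurons, had 1959.5 and 1855 normalized counts with BLU6864 and 2264 and 2203 with DMSO (log2 fold change -0.22 ± 0.10, edgeR adjusted p = 0.0834). HYOU1 and MANF passed as lower when DMSO replicate 2 was left out (edgeR adjusted p = 0.0219 and 0.0158), within a range over the alternatives of 0.0219 to 0.997 for HYOU1 and 0.0158 to 0.549 for MANF. Of the 6 chaperone promoters with an ERSE or ERSE-II, 4 held ERSE (HSPA5, CALR, PDIA6 and CRELD2) and 2 held ERSE-II (HYOU1 and SDF2L1). The remaining ERSE and ERSE-II matches among the members were those of XBP1 and HERPUD1, which were both higher with BLU6864.

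Within ER-associated degradation, HERPUD1 rose, EDEM1 fell, and SEL1L and SYVN1 did not pass the test. HERPUD1 (ENSG00000051108, hg19 chr16:56965960-56977798) encodes a membrane protein that organizes the degradation complex. It had 3869.7 and 3838 normalized counts with BLU6864, against 2373 and 2498 with DMSO, a 1.59-fold rise (log2 fold change 0.67 ± 0.11, edgeR adjusted p = 1.1e-05). EDEM1 (ENSG00000134109, hg19 chr3:5229331-5261642) encodes a mannosidase-like protein that marks misfolded glycoproteins for disposal. It had 3528 and 3355 with BLU6864 and 7339.8 and 6931 with DMSO, which is 2.07-fold lower with the inhibitor (log2 fold change -1.05 ± 0.11, edgeR adjusted p = 1.9e-08). The groups were well separated in both genes, in opposite directions, and both calls were made in all alternatives. SEL1L and SYVN1 form the core of the HRD1 ubiquitin ligase. SEL1L stood at 0.028 ± 0.11 and SYVN1 at 0.15 ± 0.11 (edgeR adjusted p = 0.861 and 0.3). SYVN1 overlaps MRPL49 and FAU, so part of its reads may not be its own, which was not tested.

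The 12 regulators and stress effectors around ATF4 moved in both directions, with 5 higher, 4 lower and 3 not called. The share called was 75%, against 42.2% of all genes. The median log2 fold change of the 12 was 0.0026 and ranged from -0.099 without DMSO replicate 2 to 0.10 without DMSO replicate 1. ATF4 itself had 8546 and 8547 normalized counts with BLU6864 and 10159 and 10379 with DMSO. Both treated libraries were below both controls, but the gene did not pass (log2 fold change -0.26 ± 0.12, edgeR adjusted p = 0.0725). It passed as lower in 4 of 11 alternatives, and its log2 fold change was -0.28 to -0.21 over all 11. Those 4 included DESeq2 (adjusted p = 0.0257) and the replicate block (edgeR adjusted p = 0.0253), both with all libraries. CEBPG and CEBPB encode dimer partners of ATF4. CEBPG fell, with 666 and 677 with BLU6864 and 838 and 838 with DMSO (log2 fold change -0.32 ± 0.11, edgeR adjusted p = 0.0243), and CEBPB did not pass (log2 fold change 0.14 ± 0.12, edgeR adjusted p = 0.353) except without DMSO replicate 1 (edgeR adjusted p = 0.0182, 0.0182 to 0.999 over the alternatives). ATF5, a related factor that is also controlled at translation, rose, with 699.8 and 739.9 with BLU6864 and 588 and 511 with DMSO (log2 fold change 0.39 ± 0.12, edgeR adjusted p = 0.0089). ATF5 overlaps 1062 bases of NUP62 and 838 of IL4I1, neither of which was called, and shared reads were not tested.

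DDIT3, which encodes CHOP, and TRIB3, a pseudokinase induced by ATF4 and CHOP that restrains both, changed in opposite directions. DDIT3 (ENSG00000175197, hg19 chr12:57910371-57914300) had 394 and 375 normalized counts with BLU6864, against 162 and 216 with DMSO. The rise was 2.05-fold (log2 fold change 1.04 ± 0.15, edgeR adjusted p = 1.9e-06), and the DMSO libraries differed from each other by less than the gap between the groups. DDIT3 overlaps 982 bases of MARS, a methionyl-tRNA synthetase gene that was lower with BLU6864 (log2 fold change -0.67 ± 0.11, edgeR adjusted p = 1.3e-05). TRIB3 (ENSG00000101255, hg19 chr20:361261-378203) had 1588 and 1537 with BLU6864 and 3443 and 3004 with DMSO, 2.06-fold lower with the inhibitor (log2 fold change -1.04 ± 0.11, edgeR adjusted p = 1.3e-08). Both genes were called in all 11 alternatives. PPP1R15A encodes GADD34, the stress-induced subunit of the eIF2 phosphatase, and did not pass (log2 fold change -0.13 ± 0.11, edgeR adjusted p = 0.323).

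Among the effectors, DDIT4 and SESN2, both of which restrain mTORC1, rose. DDIT4 had 39428 and 36632 normalized counts with BLU6864, against 22068 and 21647 with DMSO, 1.75-fold higher (log2 fold change 0.80 ± 0.13, edgeR adjusted p = 1.7e-05). SESN2, a leucine-binding protein, had 1426 and 1473 with BLU6864 and 1194 and 1152 with DMSO (log2 fold change 0.31 ± 0.10, edgeR adjusted p = 0.019). The change of SESN2 was the smaller of this pair, and it lost its call without either BLU6864 library. STC2, a secreted glycoprotein, rested on few reads, 71 and 79 in the treated libraries against 61 and 34 in the controls. Its normalized counts were 74.6 and 74 with BLU6864 against 55.8 and 37.2 with DMSO (log2 fold change 0.66 ± 0.23, edgeR adjusted p = 0.0256). Its DMSO libraries lay far apart, and DESeq2 did not call it (adjusted p = 0.169, with 0.00298 to 0.169 over the alternatives).

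VLDLR, a lipoprotein receptor that PERK and ATF4 raise in stressed cells, fell with BLU6864. It had 1392 and 1301 normalized counts with BLU6864, against 2403 and 2175 with DMSO, 1.7-fold lower (log2 fold change -0.76 ± 0.11, edgeR adjusted p = 1.7e-06). CHAC1, an enzyme that degrades glutathione and a close follower of ATF4 activity, had 129 and 155 with BLU6864 and 227 and 199 with DMSO (log2 fold change -0.58 ± 0.16, edgeR adjusted p = 0.00407). The groups were separate in both genes. The CHAC1 test lost its call without BLU6864 replicate 1 (edgeR adjusted p = 0.141, 0.000435 to 0.141 over the alternatives) and kept it in the other 10. The 4 members with a CARE core in the promoter window were CHAC1, CEBPG and ASNS, which were lower with BLU6864, and HERPUD1, which was higher.

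**Figure D3:**
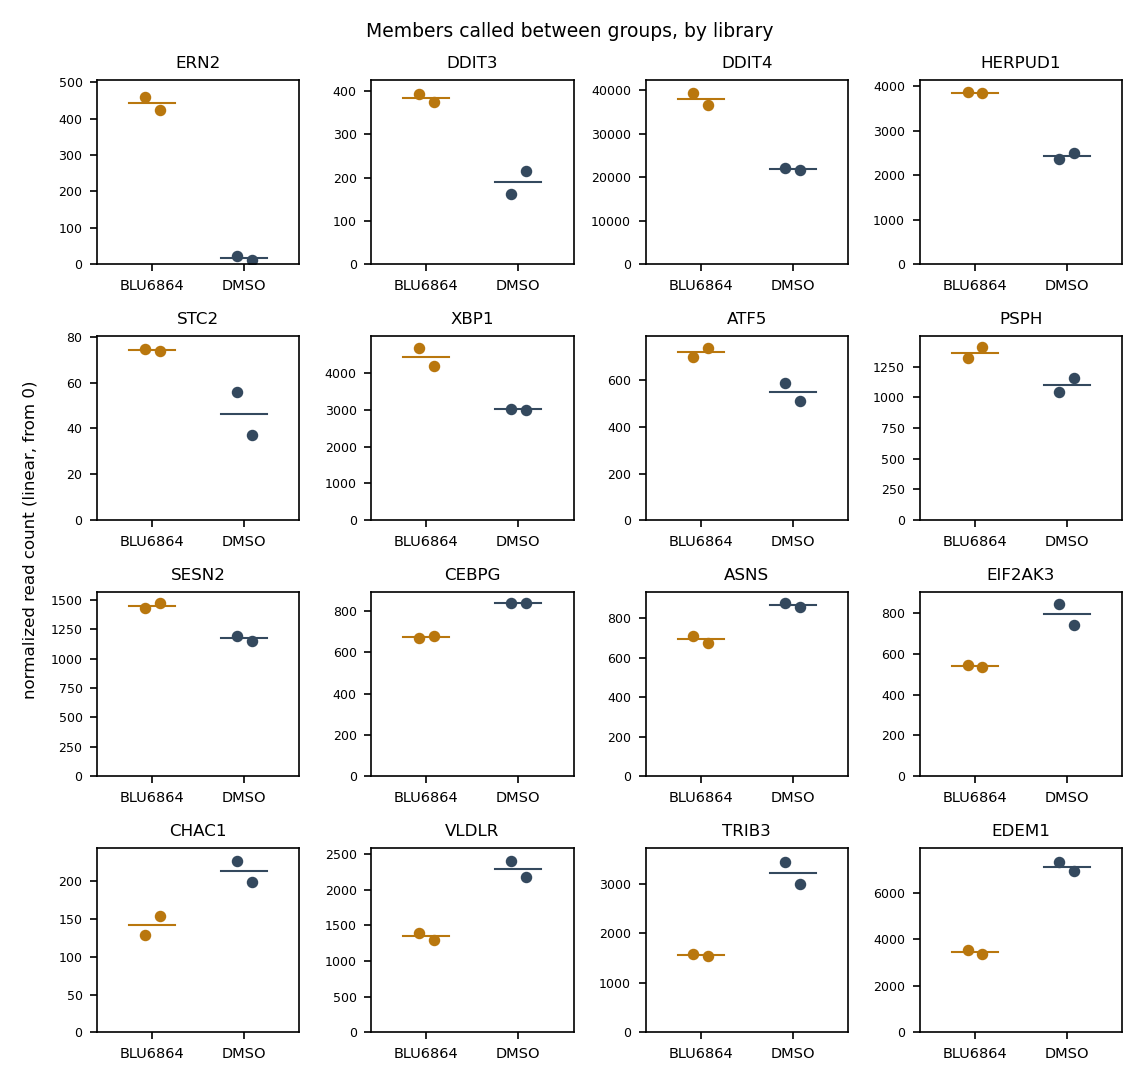
Normalized read counts (vertical axes, linear from 0, a scale per gene) of the 16 called genes, with 1 point per library and a line at the mean of each group, ordered by fold change from ERN2 to EDEM1. In each panel the BLU6864 points lie wholly above or below the DMSO points, as for XBP1 at 4678 and 4194 with BLU6864 and 3013 and 3001 with DMSO.

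Of the 6 enzymes of serine, folate-carbon and asparagine synthesis, 1 rose, 1 fell and 4 did not pass. That is 33.3% called, against 42.2% of all genes. Their median log2 fold change was -0.094 (0.048 without DMSO replicate 1). PHGDH, PSAT1 and PSPH catalyse the successive steps from a glycolytic intermediate to serine. PHGDH had 1899 and 1881 normalized counts with BLU6864 and 2089.6 and 1587 with DMSO, where the treated libraries lay between the controls (log2 fold change 0.043 ± 0.12, edgeR adjusted p = 0.794). PSAT1 had 4474 and 4395 with BLU6864 and 3764 and 3816 with DMSO (log2 fold change 0.23 ± 0.11, edgeR adjusted p = 0.0827). PSPH had 1316 and 1408 with BLU6864 and 1043 and 1158 with DMSO, the treated cells being higher (log2 fold change 0.31 ± 0.11, edgeR adjusted p = 0.021). PSPH has a pseudogene copy whose reads may map to it. The genes after the first step were thus above the controls in both libraries, but only PSPH passed. PHGDH passed as higher without DMSO replicate 1 (edgeR adjusted p = 0.0209, 0.0209 to 0.899 over the alternatives), and PSAT1 passed in 4 of 11 alternatives, with edgeR adjusted p 0.029 to 0.422.

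SHMT2 and MTHFD2 are mitochondrial enzymes that pass the carbon of serine into folate. SHMT2 had 3666 and 3527 normalized counts with BLU6864 and 4619 and 3905 with DMSO (log2 fold change -0.24 ± 0.11, edgeR adjusted p = 0.0839), and MTHFD2 had 2176 and 2210.4 with BLU6864 and 2476 and 2685 with DMSO (log2 fold change -0.23 ± 0.10, edgeR adjusted p = 0.0783). Both were lower in each treated library than in each control, and neither passed the test by group alone. SHMT2 passed without DMSO replicate 2 (edgeR adjusted p = 0.000942, 0.000942 to 0.496 over the alternatives) and MTHFD2 passed without DMSO replicate 1 (edgeR adjusted p = 0.00545, 0.00545 to 0.42). ASNS, asparagine synthetase, a standard readout of ATF4, had 711 and 676 with BLU6864 and 877 and 859 with DMSO, and fell (log2 fold change -0.32 ± 0.11, edgeR adjusted p = 0.0224). The changes in this group were small, the largest being 1.25-fold, and both calls were lost without either BLU6864 library. ASNS also missed the threshold with all libraries under upper-quartile factors (edgeR adjusted p = 0.051) and with DESeq2 (adjusted p = 0.0534). Leaving out BLU6864 replicate 1 gave an edgeR adjusted p of 0.158 for ASNS and 0.117 for PSPH, and leaving out BLU6864 replicate 2 gave 0.314 and 0.355, with ranges over the alternatives of 0.00446 to 0.314 and 0.000622 to 0.355.

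ATF5, CEBPG, SESN2 and STC2 also lost their calls when either BLU6864 library was left out. Without BLU6864 replicate 1 their log2 fold changes were 0.44, -0.30, 0.34 and 0.66, in that order. Without BLU6864 replicate 2 they were 0.35, -0.33, 0.28 and 0.67, against 0.39, -0.32, 0.31 and 0.66 with all libraries. These fits had a single BLU6864 library, so a lost call does not show that 1 library carried it. CEBPG also missed the threshold with all libraries, under upper-quartile factors (edgeR adjusted p = 0.0557) and with DESeq2 (adjusted p = 0.0576). STC2 lost its call without DMSO replicate 2 as well (log2 fold change 0.41). Over all alternatives the smallest adjusted p was 7.3e-05 for ATF5, 0.00737 for CEBPG, 0.00225 for SESN2 and 0.00298 for STC2. In total 5 members were called higher and 4 lower without BLU6864 replicate 1, 5 and 5 without BLU6864 replicate 2, and 9 and 11 without DMSO replicate 2, against 9 and 7 with all libraries.

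Other genes of the pathway, from lists set by known function, were counted beside the members. These lists too were chosen with earlier results of these data known, so their shares are a description only. Of 94 tested, 18 rose and 23 fell, or 43.6%, close to the 42.2% of all genes, with a median of -0.028. Among 18 further ATF4 targets, 6 rose and 9 fell (median -0.37), which is 83.3% called against 42.2% of all genes. NUPR1, a stress-induced chromatin protein, rose 4.62-fold (log2 fold change 2.21 ± 0.11, edgeR adjusted p = 6.4e-15), with 4905 and 4731 normalized counts with BLU6864 and 1067 and 1022 with DMSO. GDF15, a stress cytokine, also rose (log2 fold change 1.37 ± 0.11, edgeR adjusted p = 1.5e-10), while the adaptor gene GRB10 (log2 fold change -1.26 ± 0.11, edgeR adjusted p = 6.5e-10) and FAM129A, which encodes Niban (log2 fold change -0.86 ± 0.13, edgeR adjusted p = 4.2e-06), fell. The proline synthesis enzymes ALDH18A1 (-0.73 ± 0.11) and PYCR1 (-0.48 ± 0.11) and the mitochondrial folate enzyme MTHFD1L (-0.48 ± 0.11) fell. CTH, an enzyme of cysteine synthesis, rose (0.69 ± 0.13). These 4 genes were chosen after their values were seen (edgeR adjusted p = 3.7e-06, 0.00143, 0.00131 and 7e-05). CBS, also of cysteine synthesis and on the same list, was not called (-0.16 ± 0.11, edgeR adjusted p = 0.23).

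Of 9 tested amino acid transporters that respond to ATF4, 4 rose and 1 fell (median 0.35). That is 55.6% called, against 42.2% of all genes. SLC7A11, the cystine importer, had 787 and 821 normalized counts with BLU6864, against 462 and 449 with DMSO (log2 fold change 0.82 ± 0.12, edgeR adjusted p = 2e-06). The glycine transporter SLC6A9 rose (log2 fold change 0.88 ± 0.18, edgeR adjusted p = 0.000344), and the cationic amino acid transporter SLC7A1 fell (log2 fold change -0.72 ± 0.11, edgeR adjusted p = 5.9e-06). Of 12 aminoacyl-tRNA synthetases, 5 fell and 0 rose with edgeR (median -0.24), with 6 lower and 0 higher at an unadjusted p under 0.05 and 5 and 0 with DESeq2. The share called was 41.7%, all of them lower, where 22% of all genes were called lower and 20.3% higher. TARS, for threonine, stood at -0.68 ± 0.12 and MARS at -0.67 ± 0.11.

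Beyond the members, 24 further ER chaperones and folding factors included 3 that rose, 3 that fell and 18 not called (median -0.012), which is 25% called against 42.2% of all genes. SEC11C, a signal peptidase subunit, rose (log2 fold change 0.68 ± 0.13, edgeR adjusted p = 8e-05), as did the BiP cofactor DNAJB9 (log2 fold change 0.46 ± 0.12, edgeR adjusted p = 0.00396), while SSR3, of the translocon-associated complex (log2 fold change -0.59 ± 0.12, edgeR adjusted p = 0.000378), and the signal peptidase subunit SPCS3 (log2 fold change -0.35 ± 0.12, edgeR adjusted p = 0.0191) fell. DNAJB9 and SPCS3 did not pass in every alternative, with an adjusted p of up to 0.0966 and 0.259, from 2.3e-07 and 0.000121. Of 15 further degradation genes, 3 rose and 2 fell (median 0.13), or 33.3% called. The relatives of EDEM1 differed in direction. EDEM3 fell (log2 fold change -0.65 ± 0.11, edgeR adjusted p = 2.1e-05) and EDEM2 rose (log2 fold change 0.37 ± 0.10, edgeR adjusted p = 0.00518), although EDEM2 had an adjusted p of up to 0.203 over the alternatives, from 0.000539. The ubiquitin ligase gene RNF5 rose (log2 fold change 0.53 ± 0.11, edgeR adjusted p = 0.000277), with an adjusted p from 2.6e-06 to 0.0691 over the alternatives, and VIMP, a partner of VCP at the ER membrane, fell (log2 fold change -0.36 ± 0.11, edgeR adjusted p = 0.00811, up to 0.265 and from 3.1e-05 over the alternatives).

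Of 16 further sensors, eIF2 kinases and partners, 2 rose and 3 fell (median -0.12). That is 31.2% called, against 42.2% of all genes. EIF2AK4, which encodes the amino acid sensor GCN2, had 2512 and 2467 normalized counts with BLU6864 and 3366 and 2977 with DMSO (log2 fold change -0.35 ± 0.11, edgeR adjusted p = 0.0108), and its call was lost in part of the alternatives (adjusted p 6.9e-05 to 0.23). The haem-regulated kinase EIF2AK1 stood at 0.059 ± 0.11 and the RNA-activated kinase EIF2AK2 at -0.22 ± 0.10, and neither passed. EIF2S1, the subunit that all of these kinases phosphorylate, fell (log2 fold change -0.58 ± 0.10, edgeR adjusted p = 7.2e-05). MBTPS1, the protease that first cuts ATF6, rose (log2 fold change 0.54 ± 0.12, edgeR adjusted p = 0.000529, 7.3e-07 to 0.0518 over the alternatives), as did NCK1, an adaptor that associates with the eIF2 phosphatase (log2 fold change 1.03 ± 0.12, edgeR adjusted p = 4.9e-08).

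**Figure D4:**
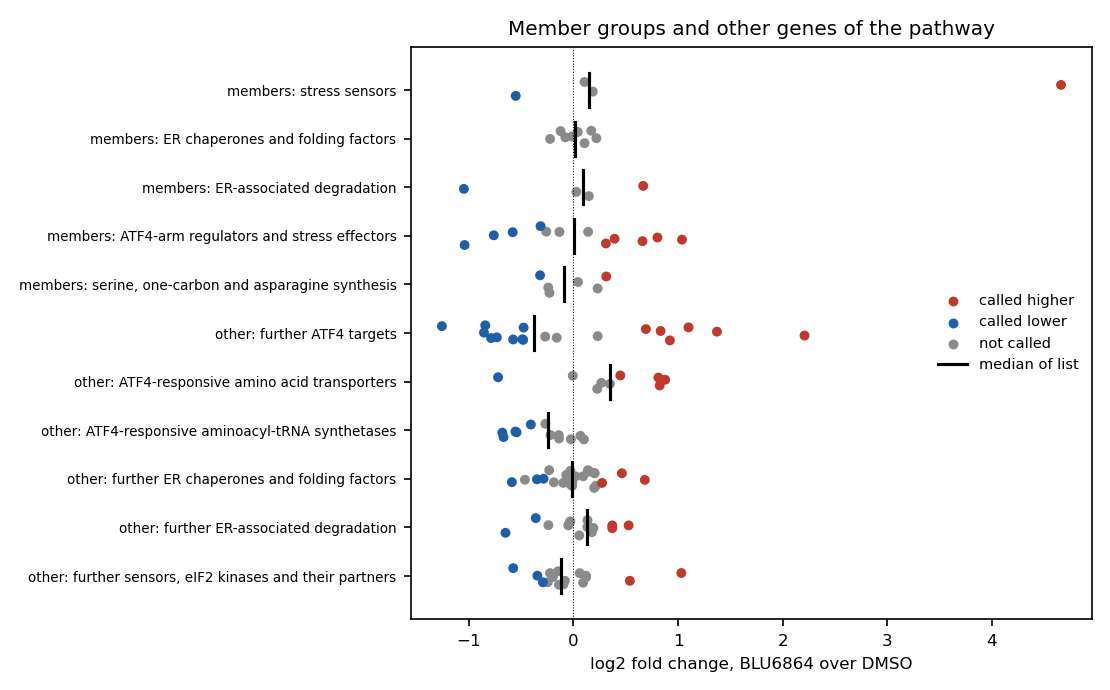
Log2 fold change of BLU6864 over DMSO (horizontal axis) for the tested genes of 5 member groups and 6 other lists of the pathway, with 1 point per gene, coloured by call, and a bar at each list's median. The chaperone members cluster around 0.013 and are all grey, not called, and the further ATF4 targets spread from -1.26 (GRB10) to 2.21 (NUPR1).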

How the data were processed

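RNA was sequenced from TPC1 cells. Per the labels, TruSeq libraries gave 50 bp single-end reads, and the submitters' processing notes name STAR 2.3, hg19 and DESeq2. The study's methods differ from these, with paired-end reads, a stranded kit and a later STAR. How reads were counted, with which gene models and whether by strand, is not given in the sources used here. The authors deposited raw read counts per gene, which were tested, and normalized counts, a signal made by dividing each count by 1 size factor per library, which give the levels. The table also holds the authors' fold changes and p-values, which were not used.

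The test was the two-sided quasi-likelihood test of edgeR 4.0.16 (R 4.3.3), on genes kept by filterByExpr, scaled by TMM and modelled by group alone, with Benjamini-Hochberg adjustment over 12696 genes. The SE is derived from the F statistic. Alternatives were RLE, upper-quartile and no scaling factors, DESeq2 1.42.0, no or a stricter filter (1 CPM), a replicate block and leaving out each library. Members and lists were chosen with earlier results of these data known. All 35 members are reported, and of the other lists the 2 called genes at each end whose mean normalized count reached 100, apart from genes named as chosen later, overlapping genes and those that complete a family. One of the thyroid markers is not reported here.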

Additional observations from a re-analysis of the deposited data

How the results depend on the processing

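Of the 35 genes, 9 were called in all 11 alternatives, and no called gene changed direction in any of them. The counts of calls moved by over 1.5 times only when a library was left out, with a range over the 4 such fits of 1250 to 3311 genes higher, 1490 to 3621 lower, 5 to 11 members higher and 4 to 11 lower. These fits had fewer samples, and 1 group then had a single library assumed to vary like the other group. The group medians are small and shifted with the settings. When a library was left out they ranged from -0.099 to 0.10 for the ATF4-arm regulators, -0.16 to 0.048 for the synthesis enzymes, -0.083 to 0.11 for the chaperones and 0.031 to 0.14 for the degradation genes, so the sign of the first 3 depends on the library. The synthesis median was -0.040 with upper-quartile factors, -0.052 with library totals only, -0.098 with DESeq2, -0.087 with the stricter filter and -0.087 with the replicate block, and the degradation median was 0.14 with upper-quartile factors. Upper-quartile factors moved the median of all genes by 0.054 and library totals by 0.042, about as much as these medians. For the other settings the cause was not tested. With the replicate block 10 members were called higher and 10 lower, ATF4, SHMT2 and MTHFD2 being added to the lower and PSAT1 to the higher ones. The replicate numbers pair the samples by no label, and the deviations of same-numbered libraries correlated at 0.142 across 12696 genes, which are not independent replicates. ERN2 in DMSO and STC2 are limited by few reads.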
